A study of Homo sapiens with 12 samples.

Results

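The genes described here are WFDC1, WFDC2, WFDC3, SLPI and PI3, 5 of the 48114 genes quantified by polyA RNA sequencing in 12 libraries of pancreatic ductal adenocarcinoma (PDAC) cell lines. They were taken from the gene tables by symbol, and the set was chosen by a first look at the same levels and fold changes that are given below, so the values of these 5 genes are a description and carry no p-value. PANC-1, a basal-like PDAC line, was transfected for 48 h with a control siRNA (siCtrl, n = 3 libraries), with siRNAs against the RNA-binding protein QKI (siQKI, 40 nM, n = 3) or with siRNAs against the RNA-binding protein RBFOX2 (siRBFOX2, 40 nM, n = 3). HPAF-II, a classical PDAC line, received siCtrl only (n = 3), so neither knockdown was made in classical cells and each subtype is represented by a single line. All siRNA effects are those of transient transfection, and nothing in the labels says that the 3 libraries of a group came from separate cultures, so the spread and the adjusted p-values refer to these libraries.

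WAP-domain proteins are small secreted proteins built from a whey acidic protein fold that is held together by disulfide bonds. SLPI, the secretory leukocyte peptidase inhibitor, and PI3, also called elafin, block neutrophil elastase at mucosal surfaces, and elafin also blocks proteinase 3 and can be cross-linked into extracellular matrix by transglutaminases. WFDC2, also known as HE4, is a secreted epithelial protein used as a serum marker of ovarian cancer. WFDC1, or ps20, was first described as a growth-inhibiting protein secreted by prostate stroma, and the role of WFDC3 is less well defined. Most human WAP genes lie in a cluster on the long arm of chromosome 20, whereas WFDC1 is on chromosome 16.

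On hg38 and in the FAST DB annotation of the deposited tables, PI3 (GSHG0026856) spans chr20:45174902-45176544, SLPI (GSHG0027399) chr20:45252238-45254564, WFDC2 (GSHG0026864) chr20:45469753-45481532 and WFDC3 (GSHG0027416) chr20:45774208-45791908. WFDC1 (GSHG0016727) spans chr16:84294795-84329844. No other annotated gene overlaps any of the 5. The start regions of the 2 members that the RefSeq promoter table (GRCh38.p14) holds, WFDC2 and WFDC3, are shown because these are also the 2 members with enough signal in PANC-1 to enter the fit. Each window runs from 250 bases before to 50 bases after the RefSeq start and is written 5′ to 3′ on the gene's strand. Capitals mark, on either strand, the E-box letters CAGGTG and their variant CAGGTA in WFDC2 (plus strand, chr20:45469503-45469802) and the cyclic AMP response element TGACGTCA in WFDC3 (minus strand, chr20:45791834-45792133).

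WFDC2: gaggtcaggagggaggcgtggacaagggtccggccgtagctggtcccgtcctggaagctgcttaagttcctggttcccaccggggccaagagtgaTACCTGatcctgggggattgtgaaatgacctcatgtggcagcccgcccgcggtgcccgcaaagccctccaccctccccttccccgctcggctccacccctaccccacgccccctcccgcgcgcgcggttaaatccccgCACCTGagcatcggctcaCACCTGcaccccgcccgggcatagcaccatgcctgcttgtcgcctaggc

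WFDC3: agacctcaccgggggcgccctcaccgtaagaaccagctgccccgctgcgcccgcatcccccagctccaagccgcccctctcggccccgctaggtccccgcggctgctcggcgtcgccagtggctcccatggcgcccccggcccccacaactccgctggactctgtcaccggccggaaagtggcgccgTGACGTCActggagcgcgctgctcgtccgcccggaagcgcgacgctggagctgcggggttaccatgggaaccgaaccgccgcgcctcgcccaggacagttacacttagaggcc

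The WFDC2 window held the E-box letters 3 times, and 1.14% of the 35116 windows in the table held them 3 times or more, while 28.1% held them at least once. The WFDC3 window held TGACGTCA once, as did 1.85% of all windows, and neither CAGGTG nor CAGGTA. Other E-box forms were not searched, although the WFDC3 window also reads CAGCTG and the WFDC2 window CATGTG. The counts therefore refer to CAGGTG and CAGGTA alone and do not separate the windows by E-boxes in general. Neither window held a TATA box (TATAAA, in 11.5% of windows), a CCAAT box (the letters CCAAT, in 34.6%) or an AP-1 element (TGANTCA, in 7.71%). Each held a GC box (GGGCGG) 2 times, and 45.0% of windows held it at least once. These 6 motifs were searched on both strands with overlapping matches counted, and they were chosen after the WFDC2 sequence had been seen. GC content was 67.3% for WFDC2 and 72.3% for WFDC3 against a median of 58.7% over all windows. The window of WFDC3 also covers the start of DNTTIP1, which lies head to head with it across a gap of 34 bases.

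All values below are the deposited counts divided by a size factor per library ("normalized counts"). Knockdown was visible in each targeted gene. QKI was at 25909, 24539 and 26150 normalized counts in siCtrl and at 4630, 5453 and 5020 in siQKI, a log2 fold change of -2.34 (SE 0.06, limma, adjusted p = 9.15e-13). RBFOX2 was at 15355, 15508 and 15424 normalized counts in siCtrl and at 2403, 2171 and 1712 in siRBFOX2, a log2 fold change of -2.89 (SE 0.09, limma, adjusted p = 4.70e-11). RBFOX2 was also lower in siQKI (log2 fold change -0.29, SE 0.09, limma, adjusted p = 0.0207), a call lost under 7 of 18 alternatives at adjusted p of up to 0.114. All 6 ductal markers were above 10 normalized counts in every group, and KRT8, KRT18 and KRT19 were at 130474 or more in every library. KRT7, EPCAM and CDH1 averaged 1430, 4749 and 987 in PANC-1 siCtrl and 246043, 120072 and 55655 in HPAF-II, with the lines normalized apart. VIM was at 1663200 or more in every PANC-1 library, CDH2 was at 0 in the 3 HPAF-II libraries, and INS was at 0 throughout. HPAF-II replicate 1 stood apart, with VIM at 4248 normalized counts against 81.3 and 85.3 in the other 2 HPAF-II libraries and COL1A2 at 970 against 0 and 0, so the line ratios of the members and the list counts between lines are also given without it.

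WFDC2 was the member that differed most between PANC-1 controls and knockdowns. It was listed at 0, 4.0 and 0 normalized counts in the siCtrl libraries, at 50.2, 138 and 54.5 in siQKI and at 75.7, 93.9 and 106 in siRBFOX2. Every library of either knockdown was above every control library, and the siQKI and siRBFOX2 libraries overlapped each other. The mean was 80.8 ± 49.4 (SD, n = 3) in siQKI and 91.8 ± 15.1 in siRBFOX2, and siQKI replicate 2 held most of the spread. On the log2(normalized count + 1) scale the fitted difference from siCtrl was 5.42 (SE 0.81) in siQKI and 5.75 (SE 0.81) in siRBFOX2, both of which share the same 3 control libraries. Because 2 of the 3 controls were at 0, the size of these differences depends on the added count and is not a fold change in the usual sense. With 0.1 added in place of 1 they became 7.71 and 8.04, and with 10 added they became 2.89 and 3.17. The siQKI minus siRBFOX2 difference was -0.33 (SE 0.81), smaller than its own error. Among ductal epithelial markers CDH1 was also higher in the knockdowns. It was at 987 ± 16.3 in siCtrl, 2610 ± 382 in siQKI and 1431 ± 107 in siRBFOX2. In the same order KRT7 averaged 1430, 1214 and 1584 and EPCAM 4749, 4378 and 4278. KRT8, KRT18 and KRT19 held most of the sum of the 6 ductal markers. That sum was 864037 to 920091 in siCtrl, 839225 to 904679 in siQKI and 713084 to 770588 in siRBFOX2. Among mesenchymal markers, again in this order, CDH2 averaged 13406.5, 16117.5 and 15603.5 and ZEB2 81.8, 154 and 157. ZEB1 averaged 9879, 8144 and 9991 and VIM 1865320, 1699920 and 1798360. The part of these markers in the WFDC2 result was not tested.

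**Figure D1:**
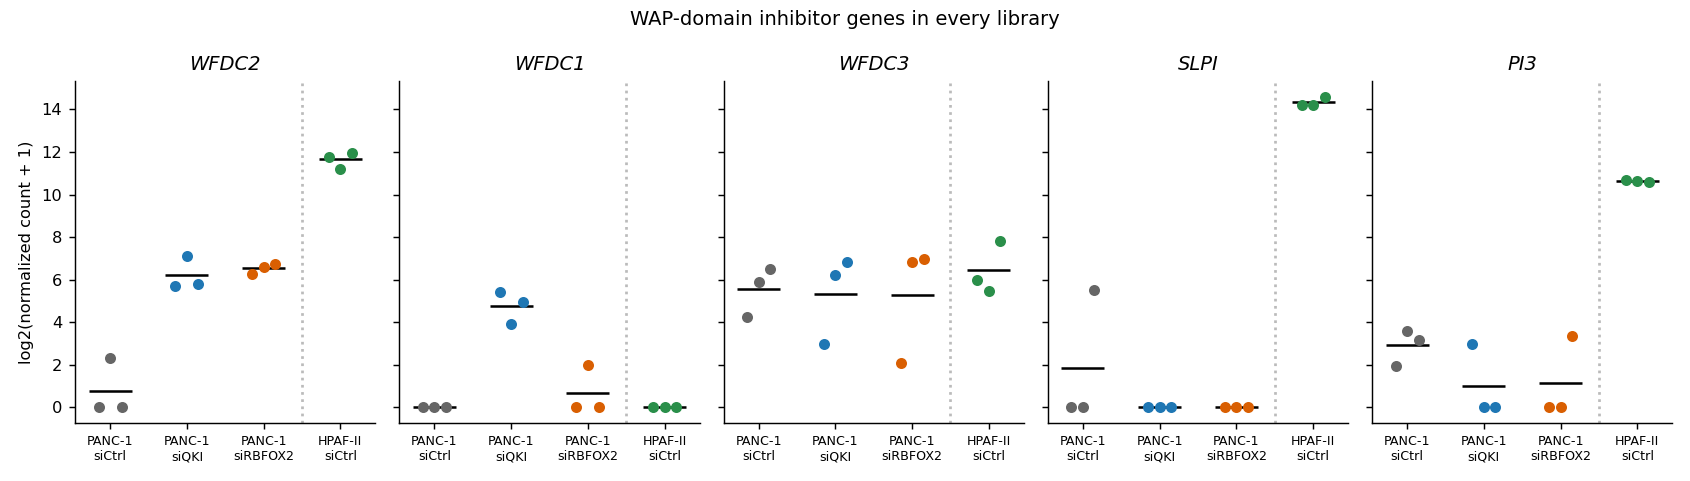
Points are libraries and bars are means of log2(normalized count + 1) for WFDC2, WFDC1, WFDC3, SLPI and PI3 in PANC-1 siCtrl, siQKI and siRBFOX2 and in HPAF-II siCtrl (3 libraries each); the dotted line separates 2 tables that were normalized apart. WFDC2 lies above the controls in all 6 knockdown libraries, WFDC1 in the 3 siQKI libraries, and SLPI, PI3 and WFDC2 are high in HPAF-II.

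WFDC2 passed the expression filter (a mean of 10 normalized counts or more over the 9 PANC-1 libraries) only through the knockdown groups. Of the 5 members 2 passed it, WFDC2 and WFDC3, and WFDC2 was the 1 called in siQKI and in siRBFOX2 at an adjusted p under 0.05, against a background of 33.0% of the 22544 tested genes in siQKI and 26.5% in siRBFOX2. These contrasts were among the values that chose the set, and nothing is read from the count. Groups of 3 libraries that do not overlap were also common, at 44.7% of tested genes for siQKI and siCtrl and 37.9% for siRBFOX2 and siCtrl. WFDC2 was not called between siQKI and siRBFOX2, where 21.5% of tested genes were.

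The level that WFDC2 reached in PANC-1 remained far from that of the classical line. To set both tables side by side, the values of a library were divided by their sum and multiplied by 1000000, and no test was run between lines. On this scale WFDC2 was at 0.246 ± 0.151 in siQKI, 0.278 ± 0.0471 in siRBFOX2 and 11.6 ± 3.04 in HPAF-II (SD, n = 3 each). The siQKI mean was thus 2.12% and the siRBFOX2 mean 2.39% of the HPAF-II mean. Per kb of exon, WFDC2 ranked 17000 of 23685 genes in siCtrl, 13071 in siQKI, 12857 in siRBFOX2 and 3969 in HPAF-II.

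WFDC1 differed between the knockdowns. It was at 0 in all 3 siCtrl libraries and at 41.1, 14.0 and 29.4 normalized counts in siQKI. In siRBFOX2 it was at 0, 2.91 and 0, and in HPAF-II at 0 in all 3 libraries. Every siQKI library thus exceeded every other library of the series. Its mean over the 9 PANC-1 libraries was 9.70, just under the minimum of 10, so it was not part of the fit. The summed level of 4 fibroblast markers was also higher in siQKI, at 8281 to 9567 against 4053 to 4543 in siCtrl and 5037 to 7257 in siRBFOX2. In HPAF-II, without WFDC1, it was 5210 to 6230. COL1A1 held most of the sum, with means of 4093 in siCtrl, 8122 in siQKI and 5537 in siRBFOX2. In the same order PDGFRB averaged 247, 649 and 479 and COL1A2 0, 4.89 and 18.3. The defining marker DCN was at 0 in every PANC-1 library. The part of these markers in the WFDC1 result was not tested. The highest WFDC1 value, 41.1, was similar to the 44.3 at which SLPI appeared in a single control library, and both are low counts.

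WFDC3 varied within groups more than between them. It was at 18.2, 59.0 and 88.5 normalized counts in siCtrl, 6.84, 73.3 and 111 in siQKI and 3.15, 111 and 124 in siRBFOX2. The 3 groups overlapped over almost their whole range, and the replicate numbered 1 was the lowest in each. The fitted log2 difference from siCtrl was -0.22 (SE 1.21) in siQKI and -0.27 (SE 1.21) in siRBFOX2, although the group means on the linear scale, 55.2, 63.7 and 79.5, ran the other way. Leaving out siRBFOX2 replicate 1 moved the siRBFOX2 difference to 1.34, and leaving out siQKI replicate 1 moved the siQKI difference to 0.96. In HPAF-II WFDC3 was at 62.9, 43.5 and 227 normalized counts.

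SLPI and PI3, the elastase inhibitors, were near 0 throughout PANC-1. SLPI was at 0, 0 and 44.3 normalized counts in siCtrl and at 0 in all 6 knockdown libraries, so a single control library held all of its PANC-1 signal. PI3 was at 2.87, 11.0 and 8.05 in siCtrl, 6.84, 0 and 0 in siQKI and 0, 0 and 9.26 in siRBFOX2. The PI3 groups overlapped, and neither gene passed the expression filter. In HPAF-II, SLPI was at 18990, 19164 and 24920 normalized counts and PI3 at 1646, 1612 and 1544.

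Between the lines, SLPI was the most abundant member in HPAF-II. On the rescaled counts per kb of exon SLPI was at 124 ± 19.8 in HPAF-II (SD, n = 3), PI3 at 10.2 ± 0.412, WFDC2 at 8.69 ± 2.28 and WFDC3 at 0.209 ± 0.189. The PI3 and WFDC2 libraries overlapped in this order, whereas SLPI lay above both and WFDC3 below both in every library. SLPI ranked 354 of 23685 genes per kb in HPAF-II, PI3 ranked 3579 and WFDC3 12446. In PANC-1 siCtrl no member stood out, and the per kb means were 0.0855 ± 0.0544 for WFDC3, 0.0717 ± 0.124 for SLPI, 0.0383 ± 0.0212 for PI3, 0.00287 ± 0.00497 for WFDC2 and 0 for WFDC1. WFDC3, SLPI and PI3 did not differ beyond their spread there. In the knockdowns WFDC2 had the highest per kb mean of the 5, at 0.184 ± 0.113 in siQKI and 0.208 ± 0.0353 in siRBFOX2, but it overlapped WFDC3 at 0.104 ± 0.0861 and 0.130 ± 0.108.

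**Figure D2:**
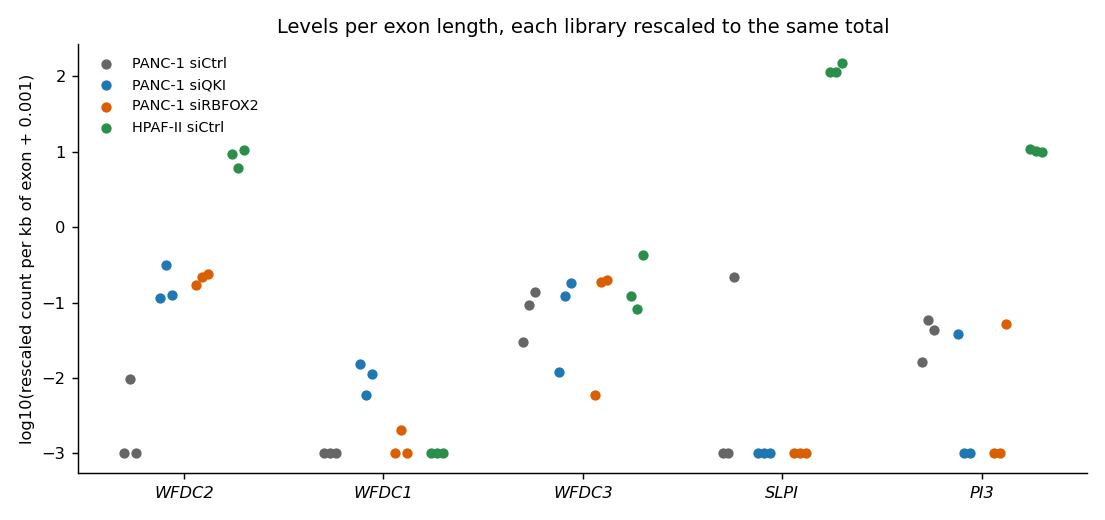
Points are libraries, 3 per group, plotted as log10 of the rescaled count per kb of exon plus 0.001 for each member in the 4 groups; points at -3 are libraries at 0. SLPI in HPAF-II, at 112 to 147, is the highest, and WFDC2 in the knockdowns lies between its PANC-1 control and HPAF-II levels.

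The log2 ratio of HPAF-II to PANC-1 siCtrl, with 0.01 added to rescaled means, was 10.46 for SLPI, 9.71 for WFDC2, 7.51 for PI3 and 1.24 for WFDC3. For WFDC2 and SLPI the PANC-1 mean rests on 1 library each, and with 0.1 added in place of 0.01 the WFDC2 ratio became 6.82 and the PI3 ratio 5.57. All 4 were at least 2-fold higher in HPAF-II, as were 27.2% of the 24673 genes compared. WFDC2 and PI3, with siCtrl means of 1.33 and 7.30 normalized counts, reached the minimum of 10 in HPAF-II alone. They therefore had to be higher there, and nothing is read from the count. SLPI, WFDC2 and PI3 did not overlap between the lines, which held for 63.7% of all genes compared, and WFDC3 did overlap. Without HPAF-II replicate 1 the ratios were 10.52, 9.65, 7.47 and 1.51 in the same order. The differences of SLPI, WFDC2 and PI3 were thus as large without the library that held VIM. The WFDC3 ratio fell to 0.22 without HPAF-II replicate 3, the library at 227. In bulk libraries such as these, fewer cells with a transcript and less transcript per cell cannot be told apart.

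The remaining WAP genes were largely silent. Among 13 other WAP-domain genes in the table, 8 were at 0 in all 12 libraries and 1 passed the expression filter. That gene was WFIKKN1, a secreted binding protein of myostatin and GDF11 with WAP, Kunitz and other inhibitor-type domains. WFIKKN1 was at 272, 326 and 358 normalized counts in siCtrl and at 533, 735 and 733 in siQKI, with no overlap. It rose in siQKI by a log2 fold change of 1.06 (SE 0.27, limma, adjusted p = 0.00683), a call lost without the mean-variance trend (adjusted p = 0.0518). In siRBFOX2 it was at 506, 270 and 210 (log2 fold change -0.05, SE 0.27, limma, adjusted p = 0.926), and siQKI exceeded siRBFOX2 by 1.10 (SE 0.27, limma, adjusted p = 0.00794; 0.0659 without the trend). In HPAF-II it was at 81.5, 0 and 53.2, the opposite order of lines to that of SLPI, PI3 and WFDC2.

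The WAP genes of chromosome 20 span 682 kb and 14 of them are annotated there, with unrelated genes between and beside them. PI3 and SLPI are separated by 75.7 kb, SLPI and WFDC2 by 215 kb and WFDC2 and WFDC3 by 293 kb. Of 18 such neighbours, between or beside the WAP genes, that were compared between the lines, 13 were within 2-fold. At least 2-fold higher in HPAF-II were 4 and at least 2-fold lower was 1, beside 27.2% and 25.2% of all genes compared. Of the 18, 2 entered through HPAF-II alone. Without HPAF-II replicate 1 the 2-fold counts were 3 higher and 2 lower. With no overlap of libraries, 6 of the 18 were higher and 5 lower in HPAF-II, beside 63.7% of all genes either way. SDC4, the heparan sulfate proteoglycan syndecan 4, lies between SLPI and WFDC2 and was at 60557 normalized counts on average in siCtrl, 64825 in siQKI and 52620 in siRBFOX2. PIGT, a subunit of the GPI transamidase, was at 42559, 43886 and 36678. Both were called lower in siRBFOX2 (SDC4 by a log2 fold change of -0.20, limma, adjusted p = 0.00421, and PIGT by -0.22, limma, adjusted p = 0.00315), and the SDC4 call was lost with equal totals and without the mean-variance trend, at adjusted p of up to 0.0616. LOC105372631, which starts 42.3 kb before WFDC2 and is the 1 tested gene with a symbol in the cluster that the neighbour list does not hold, was at 15.3, 46.0 and 36.2 normalized counts in siCtrl, 43.3, 55.8 and 75.5 in siQKI and 40.0, 30.02 and 144 in siRBFOX2. Its groups overlapped, and its differences from siCtrl of 0.92 in siQKI (SE 0.64, limma, adjusted p = 0.318) and 0.90 in siRBFOX2 (SE 0.64, limma, adjusted p = 0.357) did not pass.

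Of 15 neighbours tested in siQKI by limma 0 were called higher and 5 were called lower, against 14.9% and 18.1% of all tested genes, and 7 had an unadjusted p under 0.05. In siRBFOX2 1 was called higher and 5 lower, against 12.0% and 14.5%. The scaling affects such splits, since over all genes 3362 were higher and 4070 lower in siQKI as deposited but 4225 and 3057 after upper-quartile rescaling, and 2713 and 3272 in siRBFOX2 became 3454 and 2290 with equal totals. With equal totals the neighbours split into 1 higher and 5 lower in siQKI and 2 and 3 in siRBFOX2. None of these changes reached 1.5-fold. DNTTIP1, a subunit of a histone deacetylase complex and the head-to-head partner of WFDC3, was at 12096, 10143 and 11827 normalized counts in siCtrl and 8607, 8824 and 7695 in siQKI (log2 fold change -0.44, SE 0.07, limma, adjusted p = 0.000151). It was also called lower in siRBFOX2 (-0.25, SE 0.07, limma, adjusted p = 0.0129), a call lost with equal totals, without the mean-variance trend and without siCtrl replicate 1 or 3, at adjusted p of up to 0.0863. It was at 31544, 29703 and 22145 in HPAF-II, with a rescaled log2 ratio of 1.57. The median log2 fold change of the neighbours was -0.02 in siQKI and -0.08 in siRBFOX2, beside 0.03 and 0.01 over all tested genes.

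**Figure D3:**
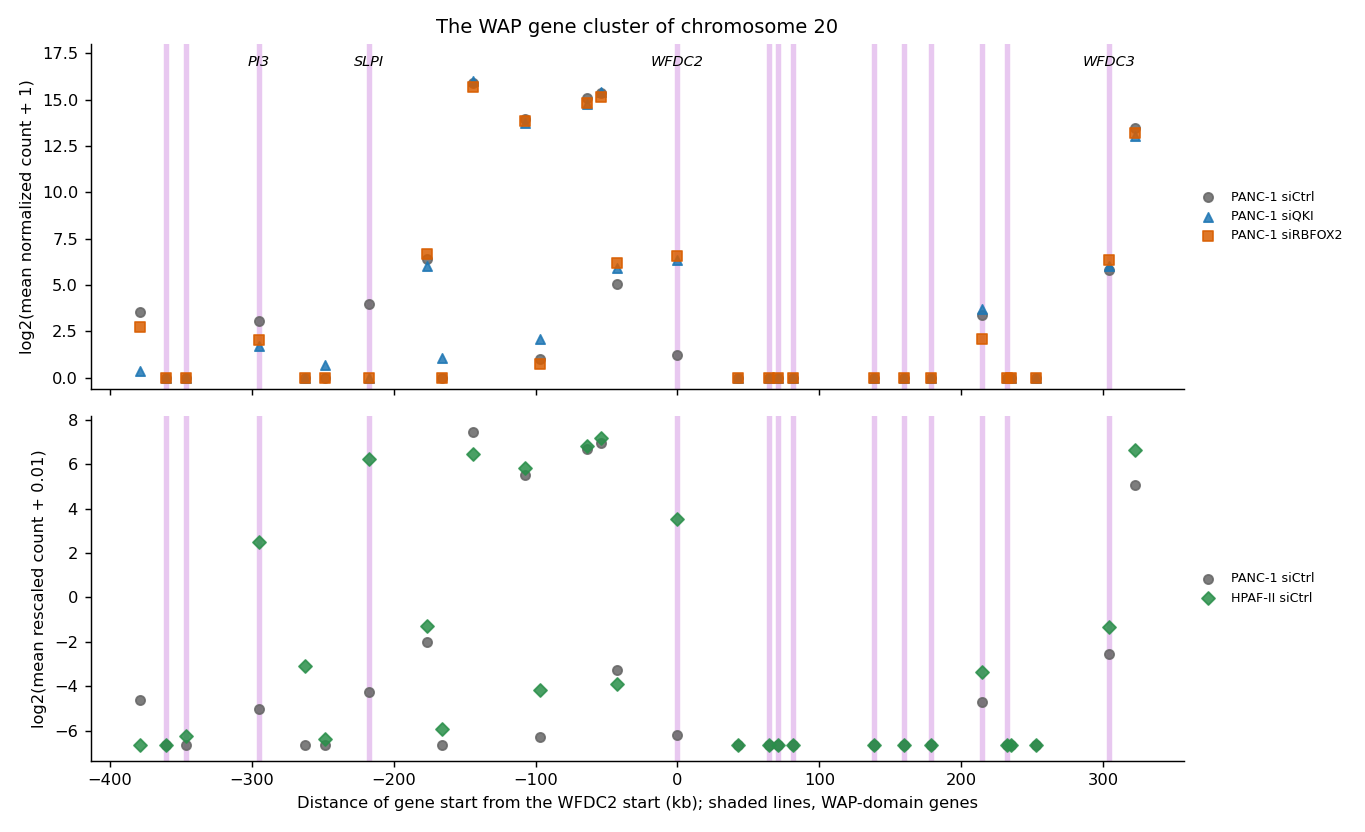
Each point is a gene of the chromosome 20 cluster at the distance of its start from that of WFDC2 (kb), with log2 of the mean normalized count plus 1 in the 3 PANC-1 groups above and log2 of the mean rescaled count plus 0.01 in the 2 lines below (3 libraries per mean). Shaded lines are WAP genes; 8 of the 14 are at 0 in every library, and WFDC2 is the WAP gene whose control point (1.33 normalized counts) lies far below its knockdown points (80.8 and 91.8).

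The serine proteases, among which the targets of SLPI and elafin are found, were then described from a list that was set with earlier results of these data known. Of the 33 that the tables held, 19 were tested. In siQKI 7 rose, 4 fell and 8 did not pass, beside 14.9% of all tested genes called higher and 18.1% called lower. In siRBFOX2 1 rose, 3 fell and 15 did not pass, beside 12.0% and 14.5%. Without siCtrl replicate 2 the siRBFOX2 count became 4 higher and 2 lower, so 1 control library turned the balance of directions. The median log2 fold change of the 19 was 0.31 in siQKI and -0.02 in siRBFOX2, beside 0.03 and 0.01 over all tested genes.

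ELANE, neutrophil elastase and the main target of SLPI, was at 45.0, 89.0 and 54.3 normalized counts in siCtrl, 211, 256 and 447 in siQKI and 42.1, 234 and 98.2 in siRBFOX2. It rose in siQKI by a log2 fold change of 2.24 (SE 0.52, limma, adjusted p = 0.00351), whereas the siRBFOX2 libraries overlapped the controls (0.71, SE 0.52, limma, adjusted p = 0.366). PRTN3, proteinase 3 and a target of elafin, was at 78.5, 140 and 43.3 in siCtrl, 412, 349 and 385 in siQKI and 278, 105 and 145 in siRBFOX2. It rose in siQKI by 2.27 (SE 0.41, limma, adjusted p = 0.000517), and the siRBFOX2 change of 1.04 did not pass (SE 0.41, limma, adjusted p = 0.0789). The siQKI minus siRBFOX2 difference was 1.53 for ELANE (limma, adjusted p = 0.0485) and 1.23 for PRTN3 (limma, adjusted p = 0.0454), and these calls were lost under 10 and 9 of 18 alternatives, at adjusted p of up to 0.206 and 0.164. Among leukocyte markers, MPO and PTPRC were at 0 in all siQKI libraries, and 2 of the 5, CD68 and CD14, were above 10 normalized counts in every group. The summed level of the 5 was 50508 to 57206 in siCtrl, 38378 to 39322 in siQKI and 42887 to 44807 in siRBFOX2. In HPAF-II, where SLPI and PI3 were abundant, ELANE and PRTN3 were each at 0, 0 and 1.84 normalized counts.

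Other serine proteases of the list moved in both directions. TMPRSS2, an epithelial transmembrane protease, was at 1505, 1230 and 1145 normalized counts in siCtrl, 3155, 2295 and 2475 in siQKI and 2240, 2659 and 2144 in siRBFOX2. It rose in both knockdowns, by 1.03 (SE 0.13, limma, adjusted p = 1.99e-05) and 0.86 (SE 0.13, limma, adjusted p = 0.000161). PRSS22, a tryptase of airway epithelium, was at 2481, 2428 and 2517 in siCtrl, 1081, 991 and 1019 in siQKI and 1406, 1291 and 1176 in siRBFOX2. It fell in both, by 1.26 on the log2 scale in siQKI (SE 0.09, limma, adjusted p = 9.78e-08) and by 0.94 in siRBFOX2 (SE 0.09, limma, adjusted p = 3.53e-06). HGFAC, the activator of hepatocyte growth factor, rose in siQKI from 30.6, 57.0 and 13.1 to 155, 221 and 126 (log2 fold change 2.47, SE 0.53, limma, adjusted p = 0.00209). KLK14 (1.48, limma, adjusted p = 0.0475) and PRSS3 (-0.73, limma, adjusted p = 0.0440) were also called in siQKI, but each lost the call when single libraries were left out, with adjusted p up to 0.163 and 0.156. HTRA1, singled out after its values were seen, rose in siQKI and fell in siRBFOX2, by 0.37 (limma, adjusted p = 0.0161) and 0.33 (limma, adjusted p = 0.0402), with a difference between the knockdowns of 0.70 (limma, adjusted p = 0.000279). The siQKI call of HTRA1 was lost under 3 and its siRBFOX2 call under 9 of 18 alternatives, whereas the difference between the knockdowns passed under all 18.

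**Figure D4:**
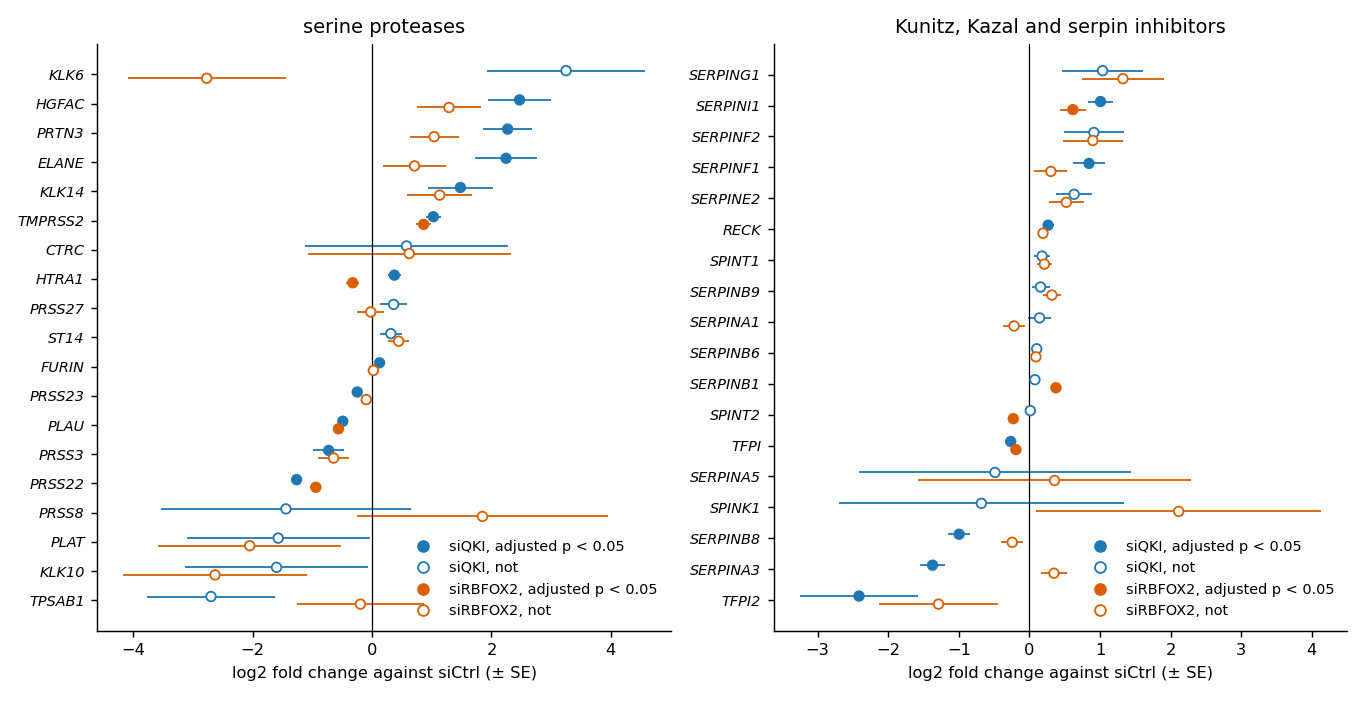
Log2 fold changes against siCtrl with their SE for the 19 tested serine proteases and 18 of the 19 tested Kunitz, Kazal and serpin inhibitors in siQKI (blue) and siRBFOX2 (orange), each from 3 against 3 libraries; filled points passed an adjusted p of 0.05. HGFAC, PRTN3 and ELANE lie above 2 in siQKI with filled points, and PRSS22 lies below 0 in both knockdowns.

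Inhibitors of other families showed changes in both directions. Of 32 Kunitz, Kazal and serpin inhibitors that were listed, 19 were tested, of which 4 rose, 4 fell and 11 did not pass in siQKI, and 3 rose, 2 fell and 14 did not pass in siRBFOX2, beside 33.0% and 26.5% of all tested genes called. The siQKI count of 8 calls became 5 without siCtrl replicate 3 and the siRBFOX2 count of 5 became 3 without siCtrl replicate 2, and with equal totals 6 were higher and 1 lower in siRBFOX2. SERPINA3, an inhibitor of neutrophil cathepsin G and chymotrypsin-like proteases, was at 738, 652 and 699 normalized counts in siCtrl and 341, 231 and 244 in siQKI. It fell by 1.37 on the log2 scale (SE 0.18, limma, adjusted p = 3.07e-05) but was at 951, 1012 and 722 in siRBFOX2 (log2 fold change 0.35, limma, adjusted p = 0.188). SERPINB8, an inhibitor of furin, fell in siQKI with a log2 fold change of -0.996 (SE 0.16, limma, adjusted p = 0.000155), from 720, 758 and 1027 to 379, 412 and 451. SERPINI1, the tissue plasminogen activator inhibitor neuroserpin, rose in siQKI by 1.01 (SE 0.18, limma, adjusted p = 0.00052) and in siRBFOX2 by 0.62 (SE 0.18, limma, adjusted p = 0.0211). SERPINF1 rose (0.84, limma, adjusted p = 0.0111) and TFPI2 fell (-2.41, limma, adjusted p = 0.0379) in siQKI, and both lost the call without single libraries, at adjusted p of up to 0.0554 and 0.186, as did SERPINI1 in siRBFOX2 at up to 0.0819.

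Cystatin B and transglutaminase 2 fell in siQKI. CSTB, an intracellular inhibitor of cysteine cathepsins, was at 161912, 156492 and 146596 normalized counts in siCtrl, 70464, 67058 and 62239 in siQKI and 131730, 121926 and 140777 in siRBFOX2. Its log2 fold change was -1.22 in siQKI (SE 0.06, limma, adjusted p = 7.39e-10) and -0.24 in siRBFOX2 (SE 0.06, limma, adjusted p = 0.00532; 0.0726 without the trend). Of the 5 tested cystatins 1 rose and 1 fell in siQKI, beside 14.9% and 18.1% of all tested genes. In siRBFOX2 1 fell, beside 14.5% of all tested genes. TGM2, the tissue transglutaminase, was at 11264, 10835 and 11761 in siCtrl, 6273, 6181 and 6035 in siQKI and 11332, 11166 and 10291 in siRBFOX2. It fell by 0.87 in siQKI on the log2 scale (SE 0.05, limma, adjusted p = 1.24e-08), with -0.05 in siRBFOX2 (SE 0.05, limma, adjusted p = 0.581). The other transglutaminase and cornified envelope genes tested were 3, of which EVPL and PPL, the plakins envoplakin and periplakin, rose in both knockdowns by less than 1.5-fold. Over all tested genes 14.9% were called higher in siQKI and 12.0% in siRBFOX2. The siRBFOX2 call of PPL (limma, adjusted p = 0.0189) was lost without the mean-variance trend and without siCtrl replicate 3, siRBFOX2 replicate 1 or siRBFOX2 replicate 2, at adjusted p of up to 0.0974. None of the 3 tested mucosal antimicrobial genes passed in either knockdown by limma, and 0 had an unadjusted p under 0.05 in siQKI or siRBFOX2. Over all tested genes 33.0% passed in siQKI and 26.5% in siRBFOX2.

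**Figure D5:**
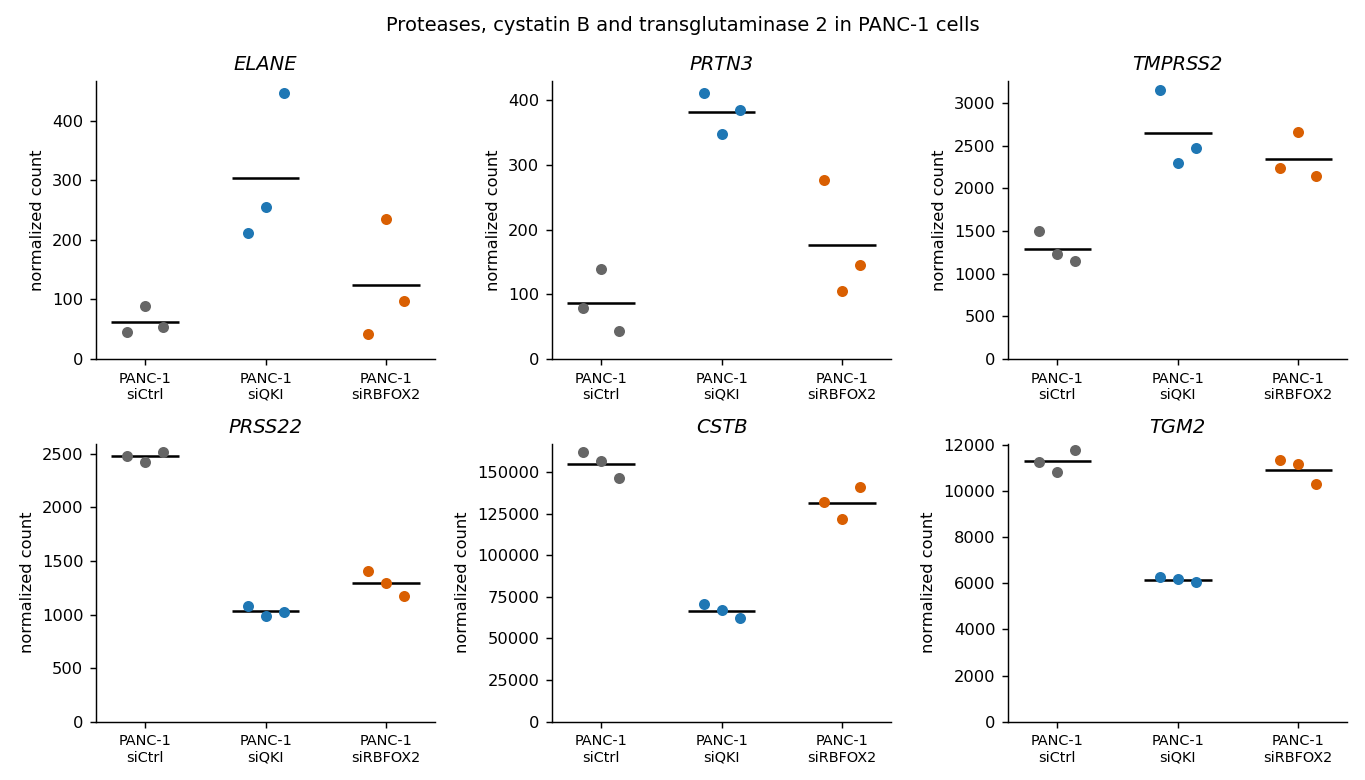
Normalized counts per library (points) and means (bars) of ELANE, PRTN3, TMPRSS2, PRSS22, CSTB and TGM2 in PANC-1 siCtrl, siQKI and siRBFOX2, 3 libraries each, on axes that start at 0. CSTB and TGM2 are lower in the 3 siQKI libraries than in the other 6, and ELANE in siRBFOX2 spans 42.1 to 234 and overlaps both other groups.

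Proteases, inhibitors and antimicrobial genes were also compared between the lines. Of 31 serine proteases compared, 18 were at least 2-fold higher and 9 at least 2-fold lower in HPAF-II, beside 27.2% and 25.2% of all genes compared. A gene that reached the minimum level in HPAF-II alone had to be higher there, and 13 of the 31 entered in this way, so nothing is read from the count. TMPRSS4 was at 189 ± 66.3 rescaled counts in HPAF-II and 0.00387 ± 0.00446 in PANC-1 siCtrl (SD, n = 3 each), KLK6 at 451 ± 33.0 against 0.0609 ± 0.0633 and PRSS8 at 145 ± 17.3 against 0.0185 ± 0.0320. PRSS23 went the other way, at 33.1 ± 12.0 in HPAF-II and 2104 ± 47.0 in PANC-1. In PANC-1 KLK6 was at 19.1, 44.0 and 0 normalized counts in siCtrl, 60.4, 160 and 77.6 in siQKI and 0, 0 and 1.85 in siRBFOX2, and neither knockdown passed against the controls. The siQKI minus siRBFOX2 difference did pass, at 6.02 (SE 1.32, limma, adjusted p = 0.00386). With siRBFOX2 near 0 its size depends on the added count, and its call was not followed through the alternatives.

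Of 18 mucosal antimicrobial genes 10 reached the minimum level in either line, and all 10 were at least 2-fold higher in HPAF-II, through whose level alone 8 of them entered the comparison. Over all genes compared, 27.2% were at least 2-fold higher in HPAF-II and 25.2% at least 2-fold lower. Genes that entered through HPAF-II alone had to be higher there. Nothing is therefore read from the count of this list or of those that follow. LCN2, the siderophore-binding lipocalin of neutrophil granules and mucosa, was at 1233 ± 54.5 rescaled counts in HPAF-II and 0.652 ± 0.397 in PANC-1, and LYZ, lysozyme, at 1094 ± 60.6 against 0.0162 ± 0.0147. PIGR, the receptor that carries IgA across epithelium, was listed at 0 in PANC-1 siCtrl and at 2.11 ± 0.483 in HPAF-II. Of 28 Kunitz, Kazal and serpin inhibitors, 8 of which entered through HPAF-II alone, 17 were at least 2-fold higher, among them SERPINB5, SERPINA5 and SPINK1, and 6 at least 2-fold lower, among them RECK and TFPI2. Of 6 cystatins, 1 of which entered through HPAF-II alone, 3 were higher and 1 was lower. CST6 and CSTA did not overlap between the lines, whereas CST1 was at 0, 0 and 33.0 normalized counts in HPAF-II against 0, 3.0 and 0 in siCtrl, and CST7, the lower one, was at 0 in HPAF-II against 0, 36.0 and 4.02, so 1 library carried most of either difference. Of 10 transglutaminase and cornified envelope genes 9 were higher, 5 of the 10 having entered through HPAF-II alone, and SPRR3, SPRR1A and IVL were listed at 0 in PANC-1 siCtrl. Without HPAF-II replicate 1, a comparison added after the data were seen, the counts higher and lower were 18 and 9 for the proteases, 17 and 5 for the inhibitors, 4 and 1 for the cystatins, 9 and 0 for the transglutaminase list and 10 and 0 for the antimicrobial genes. The HPAF-II means of the 7 genes given above with their SD (TMPRSS4, KLK6, PRSS8, PRSS23, LCN2, LYZ and PIGR) became 0.870 to 1.12 times their value without that library.

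Across the 9 PANC-1 libraries, SOCS5, CHSY1, PSPH and INPP5A were the 4 genes whose log2 level ran closest to that of WFDC2 among 15249 whose mean reached 50 normalized counts. Their Pearson correlation with WFDC2 was 0.993 for SOCS5, 0.981 for CHSY1, 0.980 for PSPH and 0.979 for INPP5A, and it reflects the gap between the 3 control and 6 knockdown libraries, which all points share. SOCS5, a suppressor of cytokine signalling, lay between 5758 and 6875 normalized counts in siCtrl, 9626 and 10524 in siQKI and 9505 and 10418 in siRBFOX2. In HPAF-II it lay between 4640 and 5676, so its order of lines was not that of WFDC2. For WFDC3 the closest were NCKAP5-AS2 (0.893), KCNIP3 (0.888) and KCTD19 (0.865), also over 9 libraries. These are the highest of 15249 values for a gene that varied mostly within groups, and they were not tested.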

How the data were processed

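PolyA RNA of 12 libraries (PANC-1 siCtrl, siQKI and siRBFOX2 and HPAF-II siCtrl, 3 each) was sequenced as 150 bp paired ends. Per the submitters' processing notes the tools were STAR 2.7.5a, Picard, SAMtools, FastQC and DESeq2, with hg38, and genes follow FAST DB. The authors deposited gene counts divided by a DESeq2 size factor, which is a normalized signal, in one table for PANC-1 and another for HPAF-II, scaled apart. Within a library every value is a whole multiple of 1 step (0.872 to 1.23) within a tolerance of 0.01 step, but 82.1% to 84.8% of low values are multiples of 3 steps, and a step is therefore not 1 fragment. Depth in fragments is unknown and no count model, interval or floor was used. Library totals were 292249000 to 376192000 steps for PANC-1, and for HPAF-II they were 226697000 to 309721000.

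The 22544 of 48114 genes whose mean over the 9 PANC-1 libraries reached 10 were fitted as log2(value + 1) with limma 3.58.1 (R 4.3.3; 3 groups in 1 fit, trend, no block, Benjamini-Hochberg adjustment over all tested genes, threshold 0.05). Fold changes are on that scale, which understates changes of low genes. The script was tested on simulated data. The lines were compared without a test, on values rescaled to a total of 1000000 per library with 0.01 added, for genes whose mean reached 10 in either line. Exon length is the union of GENCODE 29 exons, all isoforms, inside the FAST DB span. Whether counting used strand is not given in the sources used here. Of the named genes, QKI, RBFOX2, KLK6, PRSS8, PRSS23, TMPRSS4, TFPI2, SERPINA3, SERPINA5, SERPINB5, SERPINB8, RECK, CST1, EVPL, PPL and PIGT overlap another annotated gene, so their reads may be shared.

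The members and lists were chosen with earlier results of these data known. The text names the members, QKI, RBFOX2, marker genes, list genes past the threshold with at least 1.5-fold change, the 3 genes per list with the largest ratio each way between lines, and the closest correlates (5 for WFDC2, 3 for WFDC3); DNTTIP1, SDC4, PIGT, LOC105372631, EVPL, PPL and HTRA1 were added after their values were seen. Of the genes this rule names, 2 are not reported here. Alternatives covered the added count, filter, scaling, block, trend, threshold and each library left out.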

Additional observations from a re-analysis of the deposited data

How the results depend on the processing

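The log2 differences of WFDC2 from siCtrl were among the values that chose the set, so their range is a description. Of 18 alternatives only the added count moved them beyond 1 residual SD, to 7.71 and 8.04 with 0.1 and to 2.89 and 3.17 with 10, and they ranged from 4.96 to 6.20 in siQKI and 5.36 to 6.52 in siRBFOX2 when single libraries were left out; without siCtrl replicate 2 the 2 remaining controls are at 0. The siQKI minus siRBFOX2 value ranged from -0.79 to -0.07. Over all genes, calls dropped from 7432 to 2035 in siQKI, from 5985 to 1288 in siRBFOX2 and from 4844 to 977 between the knockdowns when a 1.5-fold change was also asked for, from 5985 to 3854 in siRBFOX2 and from 4844 to 3105 between the knockdowns at an adjusted p under 0.01, and from 48 to 18 over the lists in both knockdowns with the 1.5-fold change. These settings are stricter by construction. Of 18 calls of list genes that the naming rule covers, 12 were kept under every alternative and none changed direction.

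No pairing by replicate number was visible over all tested genes, which cannot show whether same-numbered libraries were prepared together. Same-numbered libraries of different groups had correlations of deviations between -0.03 and 0.02 over 9 pairs, and 3 of 9 libraries correlated best with their own number. With a replicate block 7336 genes were called in siQKI, 5891 in siRBFOX2 and 4758 between the knockdowns. The blocked SE was 0.78 for WFDC2 and 0.66 for WFDC3, against 0.81 and 1.21 without the block. WFDC3 was lowest in replicate 1 of each PANC-1 group. Low counts limit WFDC1, PI3 and the PANC-1 levels of SLPI and WFDC2, where a single library can decide the mean.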
